A study of Arabidopsis thaliana with 6 samples.

Results

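The 10 indole glucosinolate genes of Arabidopsis thaliana described here were CYP79B2, CYP79B3, CYP83B1, SUR1, UGT74B1, SOT16, MYB51, MYB34, MYB122 and CYP81F2. They were picked by their locus identifiers in the deposited table of array elements. All 10 were among the 28324 loci on the array, and 9 of them were among the 20282 loci bright enough to be tested. Indole glucosinolates are sulfur-rich defence compounds that plants of the cabbage family store in their leaves. Their core is built from tryptophan, which is oxidised to indole-3-acetaldoxime, joined to a sulfur donor, cleaved, glucosylated and sulfated, after which the indole ring can be decorated further. When tissue is damaged, myrosinases split the stored compounds into toxic products, and a small group of R2R3-MYB transcription factors switches the pathway genes on.

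Leaves of 3 genotypes were compared, with 2 arrays each: ore15-1D, ore15-2 and the wild type Col. ORE15 encodes a PLATZ-type zinc-binding protein. ore15-1D is known as a dominant, activation-tagged allele and ore15-2 as a loss-of-function allele, which the labels do not state. Each mutant was represented by 1 allele. Leaves in position 3 or 4, aged 4 days, were taken 5 h after lights on from plants that had grown on soil for 13 days with 16 h of light and 8 h of darkness. Their total RNA, with the dye Cy3, was put on Agilent arrays of a single colour. A level is the log2 of the processed spot signal minus the log2 of the 75th percentile of its own array, so that 0 is the brightness of a fairly bright spot. A change is the difference of 2 mean levels, given with its standard error from limma. A gene was called where its limma p, adjusted by Benjamini-Hochberg over all 20282 loci, lay below 0.05.

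ORE15 itself had levels of 2.75 and 2.66 in ore15-1D and of -4.90 and -4.79 in Col. It rose by 7.55 ± 0.67 in ore15-1D (adjusted p = 0.00546). In ore15-2 its levels were -6.38 and -8.44, well above background on 1 of 2 arrays, a change of -2.56 ± 0.67 that did not pass (adjusted p = 0.125). As a measure of array brightness, the 75th percentile of the processed signal reached 1249 and 1338 in ore15-1D, 809 and 747 in ore15-2 and 927 and 859 in Col. On each array between 67.8% and 73.0% of probes were well above background, and 0 were saturated. Slide 1 held both ore15-1D arrays with Col replicate 1, and slide 2 held both ore15-2 arrays with Col replicate 2. Each mutant could thus be set against Col on its own slide, whereas the difference between the mutants cannot be told apart from the difference between the slides except through Col. Both comparisons with Col share its 2 arrays. Each probe of these 10 genes was matched to a TAIR10 transcript, so that the positions below lie in transcribed sequence.

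All 4 leaf mesophyll markers (RBCS1A, CAB2, LHCB2.1 and RCA) were well above background on every array, and all 3 shoot meristem markers were not above background in any genotype. Some of the marker lists moved together with the results below. With summed levels given as the log2 of the summed scaled signal, the mesophyll markers had 9.34 to 9.44 in ore15-1D and 9.99 to 10.07 in Col, and 4 of 4 fell in ore15-1D. Of the vasculature markers 3 of 4 fell, with summed levels of 2.58 to 2.60 in ore15-1D and 3.38 to 3.61 in Col. The summed guard cell and myrosin cell markers lay at 7.27 to 7.33 in ore15-1D and 7.54 to 7.55 in Col, and 3 of 5 fell, TGG1 and TGG2 not among them. These counts stand against 22.0% of all tested loci that fell in ore15-1D, and the lists are short. In ore15-2 the sums were 10.21 to 10.32 for mesophyll, 3.26 to 3.64 for vasculature and 7.36 to 7.69 for guard and myrosin cells. The mesophyll sums were thus highest in ore15-2, next in Col and lowest in ore15-1D, the order of means of 8 of the 9 tested genes below. The other sums in ore15-2 overlapped with Col. The part of these markers in the results was not tested. In whole leaves, fewer cells of a type and less RNA per cell cannot be told apart.

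All 9 tested indole glucosinolate genes fell in ore15-1D against Col, where 22.0% of all tested loci fell, 18.6% rose and 40.6% changed in either direction. Their ore15-1D arrays lay below their Col arrays without overlap, as they did for 40.6% of all tested loci. Their median change was -1.85, against -0.01 over all tested loci. The adjusted p-values ran from 0.00341 to 0.0338. The falls ranged from 28.2-fold for CYP79B2, at the entry into the pathway, to 1.45-fold for SUR1, in its middle, and differences between genes were not tested. Over all loci 3770 rose and 4471 fell in ore15-1D, whereas with quantile normalization 4694 rose and 3683 fell, and all 9 genes fell with either. In ore15-2 against Col 0 of the 9 genes passed in limma and 4 had an unadjusted p below 0.05, as had 22.3% of all tested loci, with 8 of the 9 changes above 0. For these 8 genes the mean level was highest in ore15-2, next in Col and lowest in ore15-1D, and the difference between ore15-2 and Col did not pass for any of them.

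**Figure D1:**
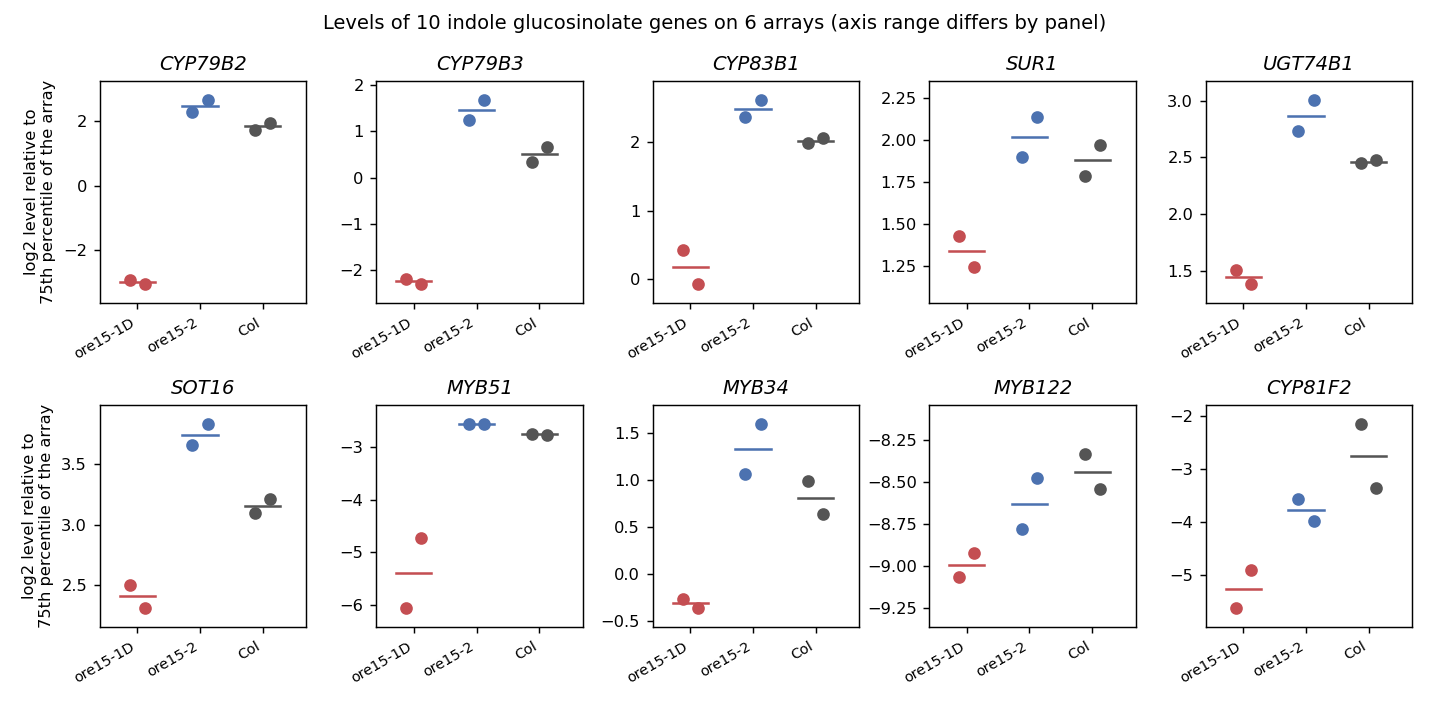
Levels of the 10 genes (log2 of signal over the array's own 75th percentile, vertical axis, with a range of its own in each panel) in ore15-1D, ore15-2 and Col; points are arrays and bars are means of 2 arrays. The ore15-1D arrays lie below both other genotypes for all 9 tested genes, and MYB122 is not above background on any array.

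The entry step, from tryptophan to indole-3-acetaldoxime, is run by the cytochrome P450 enzymes CYP79B2 and CYP79B3. CYP79B2 (AT4G39950, probe on chromosome 4 from 18527391 to 18527450, TAIR10) had levels of -2.91 and -3.04 in ore15-1D, 2.28 and 2.66 in ore15-2 and 1.74 and 1.95 in Col. On a linear scale this was 13.3% and 12.2% of the 75th percentile of the array in ore15-1D, 487% and 630% in ore15-2 and 333% and 387% in Col. Both ore15-1D arrays thus lay far below the other 4 arrays, while both ore15-2 arrays lay just above both Col arrays. CYP79B2 fell by 4.82 ± 0.16 on the log2 scale in ore15-1D (95% interval -5.24 to -4.39), or 28.2-fold (limma adjusted p = 0.00341). Ordered by change, CYP79B2 stood at rank 16 from the lowest of 20282 tested loci. The other probe of the gene, from 18527190 to 18527249, gave a change of -4.95. In ore15-2 the change of CYP79B2 was 0.63 ± 0.16 and did not pass (adjusted p = 0.123).

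CYP79B3 (AT2G22330, probe on chromosome 2 from 9490897 to 9490956) catalyses the same reaction. Its levels were -2.19 and -2.30 in ore15-1D, 1.24 and 1.67 in ore15-2 and 0.34 and 0.66 in Col. The 3 genotypes did not overlap, in the same order as for CYP79B2. The gene fell by 2.75 ± 0.19 in ore15-1D (95% interval -3.24 to -2.25), which is 6.71-fold (limma adjusted p = 0.00407). The change in ore15-2 was 0.96 ± 0.19 (95% interval 0.46 to 1.45) and missed the threshold after adjustment (limma adjusted p = 0.0747). This was the largest positive change among the 9 genes in ore15-2.

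CYP83B1 (AT4G31500, probe on chromosome 4 from 15273733 to 15273792) oxidises indole-3-acetaldoxime further and so commits it to glucosinolates. It had levels of 0.42 and -0.08 in ore15-1D, 2.37 and 2.62 in ore15-2 and 1.99 and 2.06 in Col. Both ore15-1D arrays lay well below Col, with a wider gap between the ore15-1D arrays than between the Col arrays. CYP83B1 fell by 1.85 ± 0.19 in ore15-1D, or 3.61-fold (limma adjusted p = 0.00657), and the change in ore15-2 was 0.47 ± 0.19 (limma adjusted p = 0.246).

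SUR1 (AT2G20610, probe on chromosome 2 from 8878174 to 8878233) encodes the C-S lyase that cleaves the sulfur conjugate to a thiohydroximate, a step shared with aliphatic glucosinolates. Its levels were 1.43 and 1.25 in ore15-1D, 1.90 and 2.14 in ore15-2 and 1.79 and 1.97 in Col. The ore15-1D arrays were lowest, and the ore15-2 and Col arrays overlapped. The change in ore15-1D, -0.54 ± 0.13 or 1.45-fold lower, was the smallest of the 9 (limma adjusted p = 0.0338). This fall rested on the scaling of the arrays: before it, the processed signal of SUR1 was 3374 and 3174 in ore15-1D and 3202 and 3374 in Col. The adjusted p of SUR1 passed under 10 of the 18 other settings tried, with a change between -0.63 and -0.26. The other SUR1 probe, matched over a shorter stretch than the other probes given here (8880086 to 8880139), gave -0.46 in ore15-1D.

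UGT74B1 (AT1G24100, probe on chromosome 1 from 8525557 to 8525616) adds the glucose to the thiohydroximate. It had levels of 1.50 and 1.38 in ore15-1D, 2.73 and 3.00 in ore15-2 and 2.45 and 2.47 in Col. The genotypes did not overlap. UGT74B1 fell by 1.02 ± 0.12 in ore15-1D, or 2.02-fold (limma adjusted p = 0.00746), and changed by 0.41 ± 0.12 in ore15-2 (limma adjusted p = 0.150).

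SOT16 (AT1G74100, probe on chromosome 1 from 27864505 to 27864564) is the sulfotransferase that finishes the indole core. Its levels of 2.50 and 2.31 in ore15-1D, 3.65 and 3.83 in ore15-2 and 3.10 and 3.21 in Col again kept the genotypes apart. SOT16 fell by 0.75 ± 0.11 in ore15-1D, or 1.68-fold (limma adjusted p = 0.0116). Before scaling its processed signal was 7054 and 6648 in ore15-1D and 7944 and 7960 in Col, also without overlap but closer together. In ore15-2 the change was 0.59 ± 0.11 (95% interval 0.29 to 0.89), with the smallest adjusted p of the 9 genes in that mutant, 0.0726 by limma.

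MYB51, MYB34 and MYB122 encode the R2R3-MYB factors that activate the indole pathway. MYB51 (AT1G18570, probe on chromosome 1 from 6390967 to 6391026) had levels of -6.04 and -4.72 in ore15-1D, -2.57 and -2.57 in ore15-2 and -2.75 and -2.79 in Col. The ore15-1D arrays were lowest and spread widely (SD 0.94, n = 2), and the spot was dim there, with a processed signal of 18.9 and 50.8 in ore15-1D against 138 and 124 in Col. MYB51 fell by 2.61 ± 0.43 in ore15-1D, or 6.11-fold (limma adjusted p = 0.0135). The size of this fall differed between settings: it was -1.96 after normexp background correction alone, which did not pass (limma adjusted p = 0.465), -0.81 after normexp with quantile normalization and -1.46 in a fit to the authors' deposited table. The last 2 passed. In ore15-2 the change was 0.20 ± 0.43 (limma adjusted p = 0.810).

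MYB34 (AT5G60890, probe on chromosome 5 from 24496160 to 24496219) was brighter. Its levels were -0.26 and -0.36 in ore15-1D, 1.06 and 1.60 in ore15-2 and 0.99 and 0.64 in Col. Both ore15-1D arrays lay below Col, and both ore15-2 arrays lay above it, by little for the lower of them. MYB34 fell by 1.12 ± 0.22 in ore15-1D, or 2.18-fold (limma adjusted p = 0.0192), and the change in ore15-2 was 0.52 ± 0.22 (limma adjusted p = 0.257).

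MYB122 (AT1G74080, probe on chromosome 1 from 27857354 to 27857413) was not well above background on any array and was not tested. Its measured levels were -9.07 and -8.92 in ore15-1D, -8.78 and -8.48 in ore15-2 and -8.34 and -8.54 in Col, and the authors' deposited call for this probe is also absent. No fold is given for it.

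CYP81F2 (AT5G57220, probe on chromosome 5 from 23189603 to 23189662) hydroxylates the indole ring of the finished glucosinolate, and its product is needed for the defence response that runs through the myrosinase PEN2. Its levels were -5.62 and -4.90 in ore15-1D, -3.56 and -3.98 in ore15-2 and -2.15 and -3.36 in Col. Its ore15-2 arrays lay below the Col arrays without overlap, whereas the other 8 changes in ore15-2 were above 0. CYP81F2 fell by 2.50 ± 0.48 in ore15-1D, or 5.67-fold (limma adjusted p = 0.0180), and changed by -1.02 ± 0.48 in ore15-2, which did not pass (limma adjusted p = 0.288). The Col arrays spread widely (SD 0.85, n = 2), and the change in ore15-1D was -1.73 after normexp alone, which did not pass (limma adjusted p = 0.492), -0.91 after normexp with quantile normalization and -1.50 in a fit to the authors' deposited table. The last 2 passed.

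**Figure D2:**
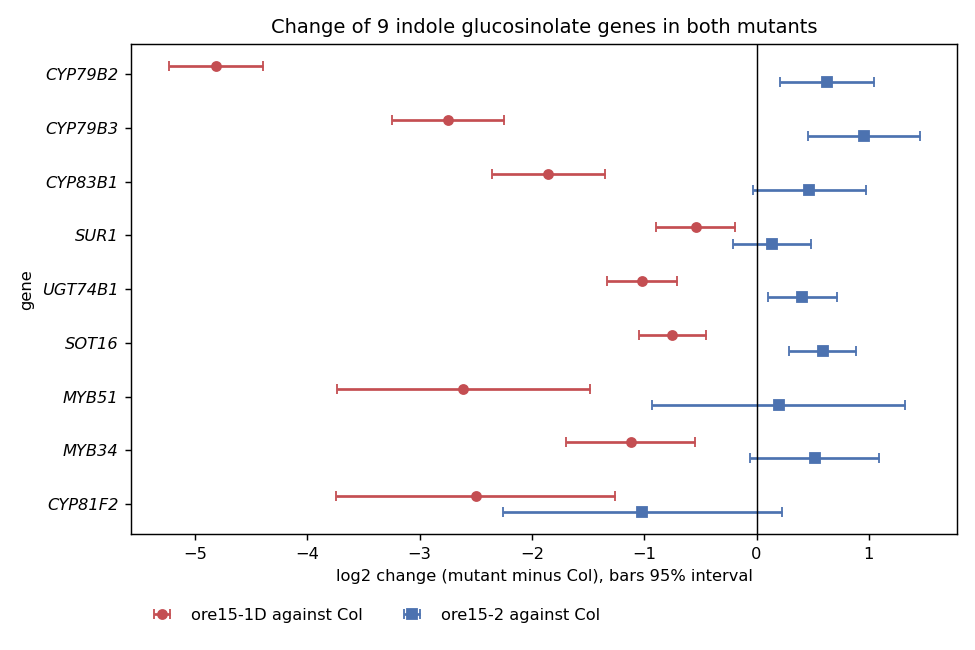
Log2 change (horizontal axis) of the 9 tested genes in ore15-1D against Col (circles) and ore15-2 against Col (squares), with 95% intervals from limma before any adjustment over loci. All 9 intervals for ore15-1D lie below 0, from CYP79B2 at -4.82 to SUR1 at -0.54, while those for ore15-2 lie nearer to 0 or cross it.

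On its own slide, against Col replicate 1 alone, the change in ore15-1D was -4.71 for CYP79B2, -2.59 for CYP79B3, -1.82 for CYP83B1, -0.45 for SUR1, -1.01 for UGT74B1 and -0.69 for SOT16. It was -2.63 for MYB51, -1.30 for MYB34 and -3.11 for CYP81F2. A fit with slide as a block gave these same changes, and 6 of 9 genes passed in it, where 19.2% of all loci did in either direction. MYB51, SOT16 and SUR1 did not (limma adjusted p = 0.0552, 0.0502 and 0.120). Leaving out either ore15-1D array left 4 of 9 genes called, which were CYP79B2, CYP79B3, CYP83B1 and MYB51, where 4.02% of all loci were called without ore15-1D replicate 1 and 5.29% without ore15-1D replicate 2. Without Col replicate 1 there were 7 genes, with 30.8% of all loci called, and without Col replicate 2 there were 6, with 19.1%. A genotype left with a lone array has no spread of its own, and these fits take it from the other genotypes. For MYB51 the SD was 0.94 in ore15-1D, 0.0005 in ore15-2 and 0.03 in Col. Its call without either ore15-1D array rests on that small remaining spread and does not make it one of the firmer genes. With normexp background correction scaled to the 75th percentile, 0 of 9 genes and 0 of all loci passed in limma. At an unadjusted p below 0.05, 4 of the 9 genes and 2247 loci did, and the median of all loci moved to -0.25. These loci were 11.1% of those tested. SOT16 then stood at -0.29, SUR1 at -0.26 and UGT74B1 at -0.59. The changes of the 9 genes kept their sign in all 18 settings. Several settings leave the change itself as it is by design, such as the filters, the replicate block or an ore15-2 array left out. Because the ore15-1D and Col arrays did not overlap, leaving out 1 of them could not turn the sign either.

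In ore15-2 against Col 3.73% of all tested loci were called, and 0 of the 9 genes. For 7 genes the ore15-2 arrays lay above the Col arrays without overlap, as they did for 26.7% of all tested loci. For CYP81F2 they lay below without overlap, as for 25.8%. For MYB51 and MYB34 this rested on the scaling. Before it, the processed signal of MYB51 was 136 and 126 in ore15-2 and 138 and 124 in Col. That of MYB34 was 1690 and 2261 in ore15-2 and 1840 and 1337 in Col. The median change of the 9 genes was 0.47, against 0.01 over all tested loci. On slide 2, against Col replicate 2 alone, the changes were 0.52 for CYP79B2, 0.80 for CYP79B3, 0.44 for CYP83B1, 0.05 for SUR1, 0.40 for UGT74B1, 0.53 for SOT16, 0.21 for MYB51 and 0.69 for MYB34. CYP81F2 had -0.42 there. A p above the threshold does not show that these genes were equal in ore15-2 and Col: the upper 95% bound of the change was 1.05 for CYP79B2 and 1.45 for CYP79B3. CYP79B3 and SOT16 passed as higher in ore15-2 under 2 settings, normexp with quantile normalization and a spread that follows intensity.

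The difference between the mutants was tested directly, in ore15-1D against ore15-2. Of the 9 genes 8 were lower in ore15-1D, where 29.6% of all tested loci were lower and 55.7% differed in either direction, with a median change of -1.64 over the 9. CYP79B2 was 43.5-fold lower in ore15-1D (-5.44 ± 0.16, limma adjusted p = 0.00178), CYP79B3 13.0-fold lower and CYP83B1 5.00-fold lower. The change was -2.81 ± 0.43 for MYB51, -1.64 ± 0.22 for MYB34, -1.43 ± 0.12 for UGT74B1, -1.34 ± 0.11 for SOT16 and -0.68 ± 0.13 for SUR1. CYP81F2 stood at -1.48 ± 0.48 and just missed the threshold (limma adjusted p = 0.0504). With slide as a block, where Col alone links the slides, 0 of 9 genes passed. The smallest adjusted p among them was then 0.0507, and CYP79B2 still had a change of -5.23.

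**Figure D3:**
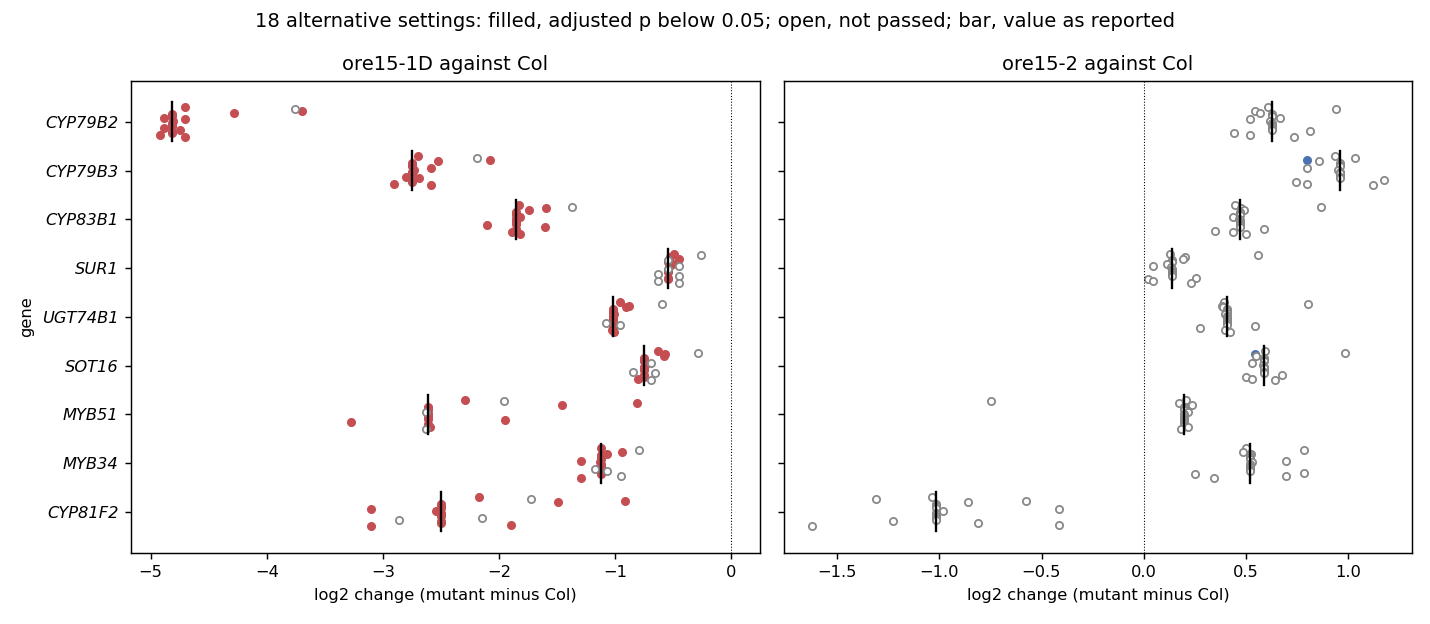
Log2 change (horizontal axis) of each gene in ore15-1D against Col (left) and ore15-2 against Col (right) under the 18 other settings, 1 point each, filled where the adjusted p was below 0.05; the bar is the value reported in the text. In ore15-1D every point is below 0, with SUR1 nearest to 0, and in ore15-2 only CYP79B3 and SOT16 have filled points.

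The other genes around the pathway were taken from lists by function, and their counts stand against 22.0% of all tested loci that fell and 18.6% that rose in ore15-1D. Tryptophan synthesis supplies the substrate. Of its 11 tested genes 4 rose, 2 fell and 5 did not pass in ore15-1D, with a median change of 0.08. Among those that rose were the anthranilate synthase beta subunit gene AT5G57890 (0.66 ± 0.08) and the tryptophan synthase beta subunit gene TSB2 (0.60 ± 0.10). PAI2 and PAI3, related phosphoribosylanthranilate isomerase genes whose probes may share signal, fell by 0.68 ± 0.11 and 0.54 ± 0.11. In ore15-2 0 of the 11 passed in limma, 2 had an unadjusted p below 0.05 against 22.3% of all tested loci, and the median was 0.02.

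Of 12 other enzymes of the indole core and side chain, 6 fell and 2 rose in ore15-1D, and the median change was -1.21. The glutathione S-transferase gene GSTF9 and the peptidase gene GGP1, which act between CYP83B1 and SUR1, fell by 1.24 ± 0.11 and 1.18 ± 0.12. GSTF9 had levels of 5.09 and 4.86 in ore15-1D and 6.26 and 6.16 in Col, and GGP1 had 1.71 and 1.73 in ore15-1D and 2.83 and 2.96 in Col, without overlap. GSTF10, a relative of GSTF9, had a change of -0.23 ± 0.12 and did not pass, and GGP3 rose by 0.56 ± 0.08. The methyltransferase genes IGMT1 to IGMT4, which act on the ring hydroxyl group left by the CYP81F enzymes, fell by 1.29 ± 0.10, 1.82 ± 0.25, 1.71 ± 0.41 and 1.36 ± 0.09. They are near-identical neighbours, and a probe shared by IGMT3 and IGMT4 was left out, so that the values of single members are uncertain. IGMT1 and IGMT4 were also the 2 genes of the list called in ore15-2, where they fell by 0.73 ± 0.10 and 0.69 ± 0.09 (limma adjusted p = 0.0335 and 0.0292). IGMT1 had levels of 0.40 and 0.54 in ore15-1D, 1.01 and 1.06 in ore15-2 and 1.83 and 1.70 in Col, so that its ore15-2 arrays lay between the others. Of the other ring hydroxylases CYP81F1 rose by 0.42 ± 0.10 in ore15-1D, while CYP81F3 at -1.42 ± 0.69 and CYP81F4 at 0.15 ± 0.84 did not pass.

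Indole-3-acetaldoxime also feeds the phytoalexin camalexin and, through nitrilases, auxin-related products. Of 9 genes in this list 4 were tested. The camalexin genes CYP71A12 and CYP71A13 did not reach the background limit on both arrays of any genotype. PAD3, the last enzyme of camalexin synthesis, was at least 1.51-fold higher in ore15-1D than in Col, where it was not well above background. It entered the test through ore15-1D alone, where its levels were -5.88 and -5.70. Its limma adjusted p of 0.0314 rests on Col readings at background and does not bear on the bound of 1.51-fold. GSTF6, a glutathione S-transferase gene tied to camalexin synthesis, had levels of -2.28 and -1.79 in ore15-1D, 2.26 and 2.25 in ore15-2 and -0.21 and 0.08 in Col. It passed in both mutants, with a change of -1.97 ± 0.20 in ore15-1D and of 2.32 ± 0.20 in ore15-2 (limma adjusted p = 0.00628 and 0.0185). The nitrilase gene NIT3 rose by 0.68 ± 0.18 in ore15-1D, and NIT1, at -0.18 ± 0.11, did not pass.

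Among 15 tested genes of breakdown and transport, 6 fell and 2 rose in ore15-1D, with a median of -0.30. The transporter genes GTR2 and GTR1, which load glucosinolates into the phloem, fell by 1.35 ± 0.11 and 0.96 ± 0.15. GTR2 had levels of -0.99 and -0.88 in ore15-1D, 0.38 and 0.23 in ore15-2 and 0.32 and 0.50 in Col. PEN2, the myrosinase that acts on the CYP81F2-dependent indole glucosinolate, fell by 0.91 ± 0.09, and the exporter gene PEN3 fell by 0.73 ± 0.15. TGG1 and TGG2, the main leaf myrosinases of myrosin cells and guard cells, had changes of -0.30 ± 0.12 and -0.12 ± 0.14 and did not pass. The nitrile-specifier gene NSP5 rose by 0.63 ± 0.13, and NSP3 rose by 1.36 ± 0.35, with 1 of 2 Col arrays well above background. In ore15-2 0 of these 15 genes passed in limma, and 2 had an unadjusted p below 0.05, against 22.3% of all tested loci.

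Of 13 upstream regulators 2 fell and 2 rose in ore15-1D. OBP2, a DOF factor known to activate CYP83B1, fell by 1.12 ± 0.12, with levels of -0.98 and -0.91 in ore15-1D, -0.01 and 0.30 in ore15-2 and 0.17 and 0.18 in Col. MPK3, a kinase upstream of WRKY33, fell by 0.97 ± 0.25. MYC3, a jasmonate-pathway partner of the MYB factors, rose by 0.29 ± 0.07, and the calmodulin-binding protein gene IQD1 rose by 0.41 ± 0.11. MYC2 at -0.15 ± 0.18, MYC4 at 0.64 ± 0.25 and WRKY33 at -1.48 ± 0.49 did not pass. In ore15-2 0 of the 13 passed in limma, 6 had an unadjusted p below 0.05 against 22.3% of all tested loci, and the median was 0.43.

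Sulfation needs activated sulfate, and glutathione donates the sulfur of the core. Of 17 genes in this list 3 fell and 0 rose in ore15-1D, with a median of -0.17. At an unadjusted p below 0.05 there were 5 of 17, against 52.7% of all tested loci. APK2 and APK1, the kinases that make the sulfate donor used by SOT16, fell by 2.75 ± 0.13 and 1.12 ± 0.13, and GSH1, of glutathione synthesis, fell by 0.56 ± 0.13. The APS and APR genes, which act before or beside the APK step, did not pass. APK2 is the direct chromosomal neighbour of CYP79B2, with 0 annotated genes between them. Its levels were -2.22 and -2.40 in ore15-1D, 0.72 and 0.98 in ore15-2 and 0.38 and 0.49 in Col, which is the order of genotypes seen for CYP79B2. In ore15-2 0 of the 17 genes passed in limma, and 3 had an unadjusted p below 0.05, against 22.3% of all tested loci.

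The aliphatic glucosinolates, made from methionine by a parallel set of enzymes, share SUR1 and the sulfate donor with the indole branch. Of 25 tested genes of 28 in that list, 19 fell and 1 rose in ore15-1D, with a median of -1.11, and 0 passed in ore15-2 in limma, where 4 had an unadjusted p below 0.05, against 22.3% of all tested loci, and the median was 0.25. BCAT4, an aminotransferase gene of methionine chain elongation, fell by 2.41 ± 0.36 in ore15-1D, and FMO GS-OX1, a side chain oxygenase gene, fell by 2.39 ± 0.29. CYP79F1, the aliphatic counterpart of CYP79B2 and CYP79B3, fell by 2.29 ± 0.31, and SOT17, a counterpart of SOT16, fell by 2.03 ± 0.21. SOT17 lies beside MYB51 with 1 gene between them, and SOT18, which fell by 1.00 ± 0.21, lies directly beside SOT16. FMO GS-OX2 was the member that rose, by 1.35 ± 0.14. Whether the indole and aliphatic genes differed in the size of their fall was not tested.

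**Figure D4:**
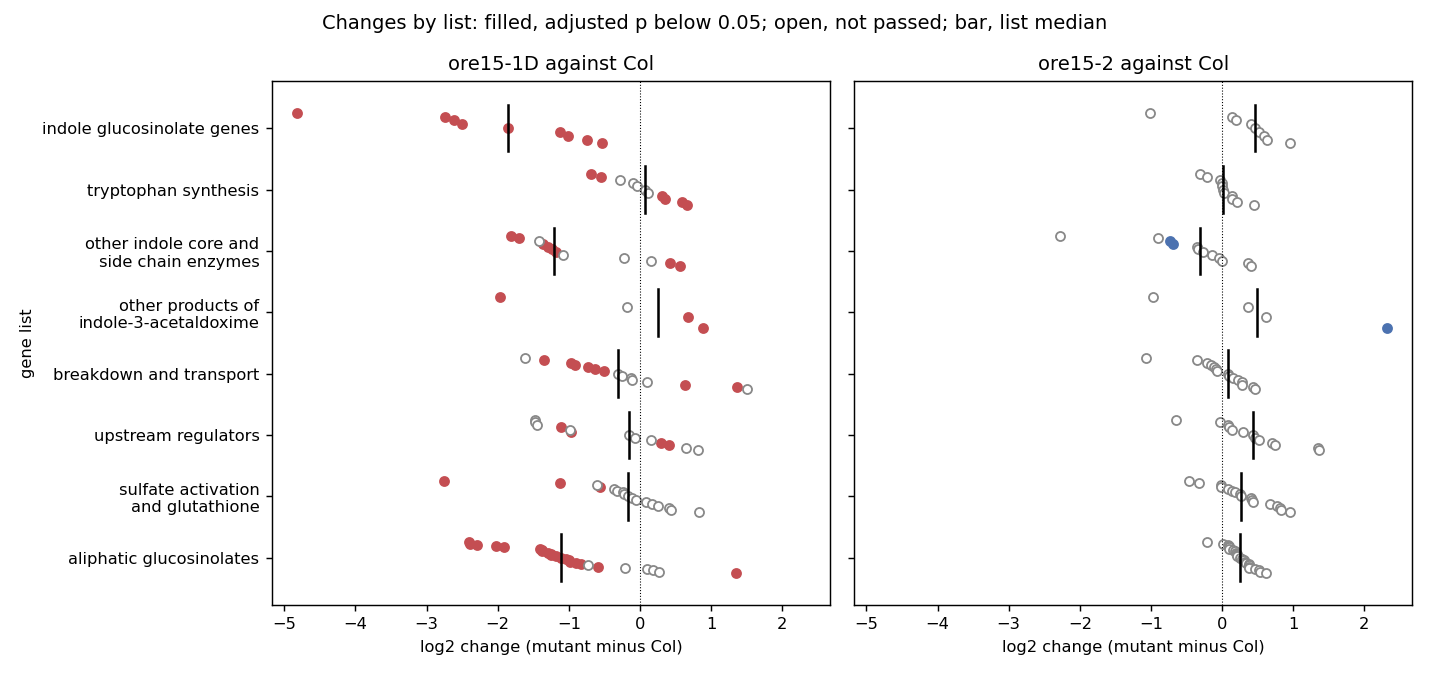
Log2 change (horizontal axis) of every tested gene of the indole glucosinolate genes and 7 related lists (vertical axis), in ore15-1D against Col (left) and ore15-2 against Col (right); filled points passed, open points did not, and bars are list medians. In ore15-1D the indole glucosinolate median is -1.85 and the tryptophan synthesis median 0.08, and in ore15-2 only 3 points are filled, among them GSTF6 at 2.32.

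The loci whose pattern over the 6 arrays was most like that of CYP79B2 were sought among 18578 candidate loci well above background on every array. Likeness was the root mean square difference of levels, each centred on its own Col mean. The 5 nearest loci were AT5G14730 (0.40), HIR2 (0.42), RK2 (0.59), AT3G56080 (0.59) and GASA1 (0.60), and none of them is in a list used here. HIR2, of a family of membrane-associated proteins, had levels of -5.36 and -4.39 in ore15-1D, 0.19 and 0.20 in ore15-2 and -0.58 and 0.29 in Col. The nearest of the other indole glucosinolate genes was CYP79B3, at 1.21, whose distance would rank 61 among the candidates, followed by MYB51 at rank 90. SUR1 was farthest, at rank 3542. This distance grows with any gap in the size of the change, whereas a correlation does not. The correlation with CYP79B2 over the 6 arrays was 0.972 (GASA1) to 0.999 (AT3G56080) for the 5 nearest loci. It was 0.988 for CYP79B3, 0.956 for SUR1 and 0.785 for CYP81F2.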

How the data were processed

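The submitters' processing notes name Agilent Feature Extraction 11.5 for the 6 arrays, and the deposited spot intensity is background-subtracted, per the file headers. The log2 table deposited by the authors, with a scaling not given in the sources used here, was fitted only as a check. Loci of probes were read from the deposited array-element table (BLASTN against TAIR10 transcripts), and symbols and gene neighbours came from a RefSeq table of TAIR10.1.

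From 45220 spots per array, 1417 controls and all outlier spots were removed. Of 43603 probes, 37257 matched 1 locus, 15 were named by accession, and 900 that matched several loci were left out. The 75th percentile of log2 intensity was subtracted, and the brightest probe of a locus was taken (7098 loci had several). A locus entered the test when 1 genotype or more had this probe well above background on its 2 arrays. "At least" folds set the brighter mean against the background limit. Tests were two-sided and used limma 3.58.1 in R 4.3.3 on all 6 arrays, with 3 residual and 1.80 prior degrees of freedom. Only the limma fit was tried on simulated data, in which few genes changed. The scaling, the filter and the choice of probes were not simulated. The number of arrays limits the precision. Arrays of 1 genotype come from independent biological samples according to the series' design text, and the p-values rest on their spread.

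The genes and lists were chosen with earlier results of these data known. By rule all 10 genes, up to 4 called genes per list and mutant with the largest change, the 5 loci most like CYP79B2 and neighbours in a list were named; other list genes were picked by eye after seeing their values. Alternatives were other normalizations, background corrections and filters, the mean of probes, slide or replicate number as a block, single slides, a fit to just the genotypes compared, an intensity trend in the spread, and each array left out. Normexp (offset 50) used the median spot signal, since the files hold no mean signal.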

Additional observations from a re-analysis of the deposited data

How the results depend on the processing

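With normexp and the 75th percentile the median of all loci was -0.25 in ore15-1D against Col. SUR1 at -0.26 and SOT16 at -0.29 lay near that median. The 9 genes kept a change below 0 in this comparison under all 18 other settings, several of which leave it unchanged by design. The number that fell was 9 as reported, 0 with normexp and the 75th percentile, and 4 to 9 with each array left out, where a lone array is assumed to vary like the other groups. The number of all loci called, 8241 as reported, was 0 with normexp and the 75th percentile, 3886 with slide as a block and 814 to 8671 with each array left out, lowest without ore15-1D replicate 1 and 1073 without ore15-1D replicate 2. In ore15-2 against Col, 757 loci were called as reported, 0 with normexp and the 75th percentile, no filter or only the genotypes compared, 1 with slide as a block, 1159 with a trend in the spread, 1204 with normexp and quantile normalization and 0 to 1341 with each array left out. The count of the 9 genes higher in ore15-2 was 0 as reported and 2 under each of normexp with quantile normalization and a trend in the spread. MYB51 turned to -0.75 in ore15-2 with normexp and the 75th percentile, which moved the median of all loci to -0.21 there; the cause was not tested. In ore15-1D against ore15-2, 11292 loci and 8 of the 9 genes were called as reported, 0 and 0 with normexp and the 75th percentile or with slide as a block, and 4766 to 11415 loci with each array left out. Where a count of 0 was met with normexp and the 75th percentile, limma gave 4, 2 and 6 of the 9 genes at an unadjusted p below 0.05 in the 3 comparisons, against 11.1%, 3.58% and 13.9% of all loci.

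With the replicate number as a block, 8 of the 9 genes fell in ore15-1D, SUR1 missing the threshold (adjusted p = 0.0582), and 6544 loci were called. In ore15-2 the replicate block left 3 loci and 0 of the 9 genes, and in ore15-1D against ore15-2 it left 10090 loci and 8 genes. Deviations of same-numbered arrays correlated at -0.01 between ore15-1D and ore15-2, -0.09 between ore15-1D and Col and 0.13 between ore15-2 and Col. Replicate 1 of ore15-1D and of Col also share slide 1, and replicate 2 of ore15-2 and of Col share slide 2. With 2 arrays per genotype, these correlations do not show whether same-numbered arrays shared a harvest or batch. The change in ore15-1D lay between -3.27 without ore15-1D replicate 2 and -0.81 with normexp and quantile normalization for MYB51, and between -3.11 with slide as a block or without Col replicate 2 and -0.91 with normexp and quantile normalization for CYP81F2. Signal over background limits MYB122, which was not well above background on any array.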

Other observations

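Marker lists outside those beside the results gave the following levels. The summed root markers lay at -1.19 to -0.42 in ore15-1D, -0.10 to 1.09 in ore15-2 and 0.18 to 0.96 in Col. Of these markers 3 of 4 fell in ore15-1D, where 22.0% of all tested loci fell. However, 2 of the 4 were not well above background on either ore15-1D array, while all 4 were in ore15-2 and Col. For these 2 a fall is set against background readings, which also enter the summed level. The summed trichome markers lay at 1.22 to 1.28 in ore15-1D and 0.46 to 0.79 in Col, and 1 of 3 rose, against 18.6% of all tested loci. Of the 4 flower markers 3 were not above background in ore15-1D and in Col. The other, SEP3, had levels of -2.87 and -3.13 in ore15-1D, -5.49 and -5.89 in ore15-2 and -4.24 and -3.77 in Col. It rose by 1.01 ± 0.23 in ore15-1D (limma adjusted p = 0.0266) and fell by 1.69 ± 0.23 in ore15-2 (limma adjusted p = 0.0349).

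Of the 12 other indole enzymes, IGMT5 showed a larger change in ore15-2 (-2.29 ± 0.53) than in ore15-1D (-1.09 ± 0.53), and neither passed in limma (adjusted p = 0.0999 and 0.157). Its levels were -2.66 and -2.48 in ore15-1D, -2.98 and -4.56 in ore15-2 and -1.31 and -1.66 in Col.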
